A study of Homo sapiens with 6 samples.

Results

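The 40 genes of heme synthesis, iron handling and heme breakdown were compared in HCT116 cells with and without overexpressed cytoglobin (CYGB), a globin that binds heme. The genes were taken as a named list, and all 40 of them were found by symbol among the 40173 genes of the deposited transcript table. HCT116 is an established human colorectal cancer line, grown here at passage 15-20. The MOCK cells (labelled wild type) received a control lentivirus, and the CYGB cells (labelled CYGB overexpression) received a lentivirus with the CYGB coding region fused to FLAG. Both were selected with puromycin, so each group is a pool of transduced cells, and both groups share the viral and drug exposure. RNA-seq was made from 3 libraries per group, which the labels call biological replicates. Whether they came from separate transductions or cultures is not given, so the p-values measure the spread between these libraries. The question of the comparison was whether transcripts of these genes differ between CYGB and MOCK cells.

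Heme is built from glycine and succinyl-CoA by a chain of enzymes that starts and ends in the mitochondrion, where ferrochelatase inserts iron into the finished ring. Cells take up iron bound to transferrin through the transferrin receptor, store the excess in ferritin and release iron from old heme with the heme oxygenases. Iron regulatory proteins bind a small RNA hairpin, the iron-responsive element (IRE), when iron is scarce: in the 5' UTR it blocks translation, and in the 3' UTR of the transferrin receptor it protects the mRNA from decay.

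Library totals ran from 58138393 to 65252059 counts in MOCK and from 61601071 to 66035266 in CYGB, and the 40 genes took 0.68 to 0.718% of the counts assigned to genes. CYGB itself had 10, 28 and 34 counts in MOCK and 34935, 27681 and 32333 in CYGB libraries, which fits the labels. Virus and endogenous CYGB could not be told apart, as the transgene holds the coding region. Summed levels of 7 colon epithelial markers were 4127 to 4602 CPM (counts scaled to the TMM-normalized library size) in MOCK and 4199 to 4490 in CYGB, with KRT8, KRT18, KRT19 and EPCAM high and VIL1 under 1 CPM in both group means. Erythroid markers summed to 15.2 to 29.2 CPM in MOCK and 27.8 to 31.8 in CYGB, mostly EPOR. These are bulk libraries, in which fewer cells of a kind and less RNA per cell cannot be told apart.

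The IREs are shown for 5 of the genes, which were listed beforehand as holding one. Matches in the other genes are not given. A search of the annotated transcripts for a C (the bulge), 5 bases, the loop CAGTGN (last base A, C or T) and 5 bases that pair with the first 5, with G-U pairs allowed, found them at the positions below (GRCh38 and GENCODE 29, on the gene's strand, 5' to 3', loop in capitals, with 6 flanking bases on each side). The FTH1 and FTL elements, in the 5' UTR of the ferritin heavy and light chain, lie at chr11:61967574-61967602 (minus) and chr19:48965335-48965363 (plus).
FTH1: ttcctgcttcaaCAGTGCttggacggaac
FTL: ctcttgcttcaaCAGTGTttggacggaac
SLC40A1, the iron exporter ferroportin, holds 1 in its 5' UTR at chr2:189580661-189580689 (minus), and SLC11A2, the iron importer DMT1, holds 1 with 1 unpaired stem position in its 3' UTR at chr12:50988269-50988297 (minus).
SLC40A1: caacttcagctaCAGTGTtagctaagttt
SLC11A2: agccatcagagcCAGTGTgtttctatggt
In TFRC, the transferrin receptor, the search matched 4 in the 3' UTR (minus strand), at chr3:196050463-196050491, chr3:196050510-196050538, chr3:196050575-196050603 and chr3:196050979-196051007. They are labelled a to d here by ascending genome position, so a lies nearest the 3' end of the mRNA. An element that departs from the search pattern would be missed.
TFRC element a: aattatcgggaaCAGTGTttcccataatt
TFRC element b: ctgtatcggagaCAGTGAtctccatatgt
TFRC element c: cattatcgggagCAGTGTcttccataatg
TFRC element d: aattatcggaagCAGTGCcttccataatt
Of 151352 transcripts searched, 691 (0.457%) hold a match with all 5 pairs and 5251 (3.47%) one with at most 1 unpaired position, so a match alone is a description of the letters and no evidence of binding.

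Across the 40 genes, levels in CYGB and MOCK cells lay close together, and no gene passed the test. All 40 passed the filter on low counts. By edgeR's quasi-likelihood test, 0 of 40 reached an adjusted p under 0.05, against 0.055% of the 19987 genes tested, and the lowest adjusted p (Benjamini-Hochberg over all genes tested) was 0.963. At the threshold of the study's methods, an unadjusted p of at most 0.01 and a ratio of at least 2 or at most 0.5, the count was again 0, against 0.565% of all genes. DESeq2 also called 0 by both rules, where 108 of all genes had an adjusted p under 0.05 and 1.32% passed the methods' threshold. In that fit 3 members had an unadjusted p under 0.05 (7.5%, against 6.14% of all genes). In edgeR an unadjusted p under 0.05 was found for 3 of 40 (7.5%, against 4.54% of all genes). TFRC had higher values (2.15% of all genes were called higher) and CPOX and STEAP2 lower values (2.39% lower) in CYGB. In 4 of 40 (10.0%, against 11.0% of all genes) the CPM of the groups did not overlap: TFRC and NCOA4 were higher (5.72% of all genes) and CPOX and HMOX2 lower (5.31%) in CYGB. With a library left out, the count at an unadjusted p under 0.05 was 1 (without CYGB replicate 3; 2.5%, against 4.59% of all genes in that fit) to 4 (without CYGB replicate 1; 10.0%, against 4.43%). The share without overlap in CPM is near the background, and the 3 genes at an unadjusted p under 0.05 are few to read against it. On the per-length scale given below (TPM), the share without overlap was larger than the 11.0% of all genes.

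The sizes of the differences were small. The median log2 fold change of the 40 genes was -0.015, against -0.007 for all genes tested, and 17 were above 0 and 23 below. The median absolute log2 fold change was 0.086, against 0.18 for all genes. For 31 genes the value lay within 0.25 of 0, and for 32 the 95% interval excluded a change of 2-fold in either direction. The median SD of log2 CPM within groups was 0.15, against 0.23 over all genes. The libraries of a group thus spread less for these genes than for the median gene. Neither this SD nor the median absolute log2 fold change was compared with genes of similar count level, so the part of count level was not tested.

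**Figure D1:**
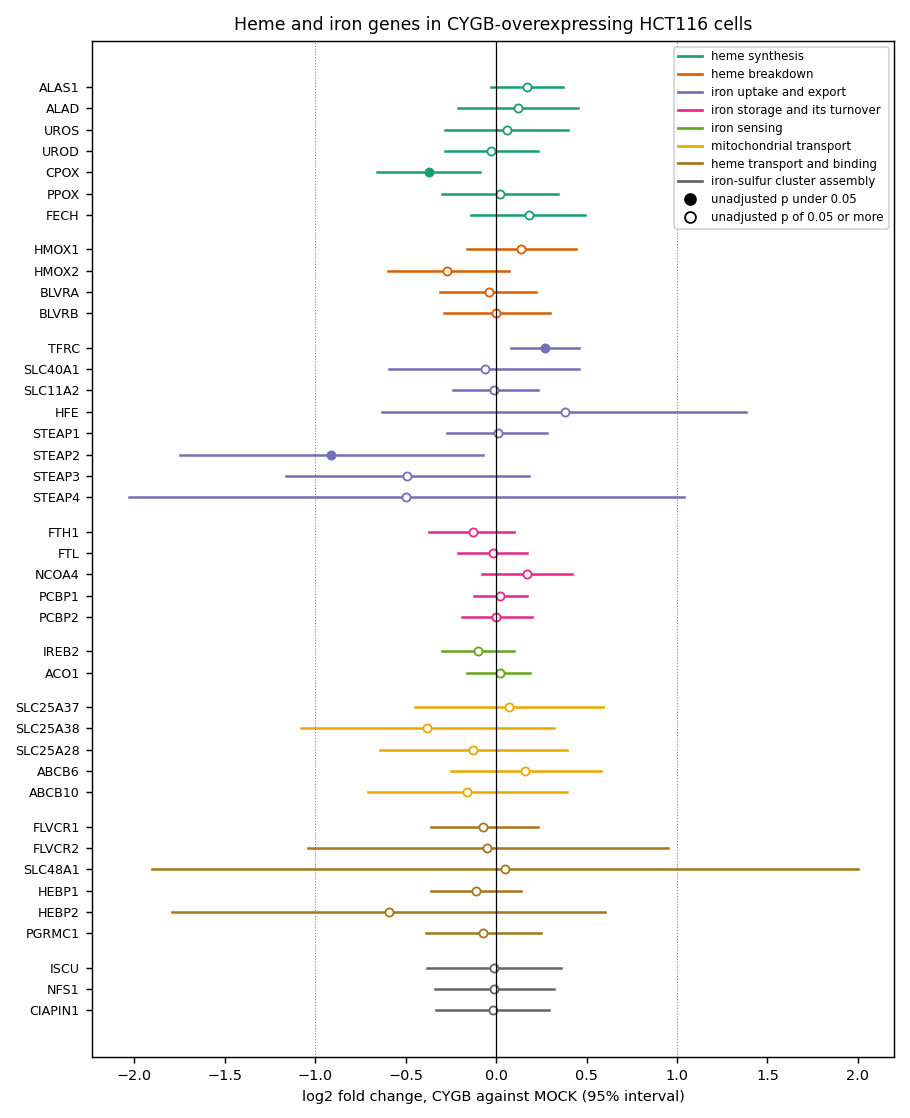
Log2 fold change of CYGB against MOCK (x axis) with its 95% interval for each of the 40 genes (y axis), coloured by role, with filled points for an unadjusted p under 0.05. The 3 filled points are CPOX, TFRC and STEAP2, and the widest interval, of SLC48A1, runs from -1.90 to 2.00.

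The 40 genes differed far more from one another than between the groups. On a per-length scale (TPM, computed here from the counts and the annotated transcript lengths), 10 genes had a mean level above 100 TPM, 24 between 10 and 100, and 6 below 10. The ferritin chains led, FTL with means of 3971 TPM in MOCK and 3983 TPM in CYGB and FTH1 with 2249 and 2172 TPM. The next 4, PCBP1 (427 and 442 TPM), TFRC (382 and 462 TPM), PCBP2 (363 and 389 TPM) and CPOX (419 and 332 TPM), changed places between the groups and did not form a fixed order. At the low end stood SLC40A1 (1.28 and 1.5 TPM) and STEAP4 (0.139 and 0.125 TPM).

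**Figure D2:**
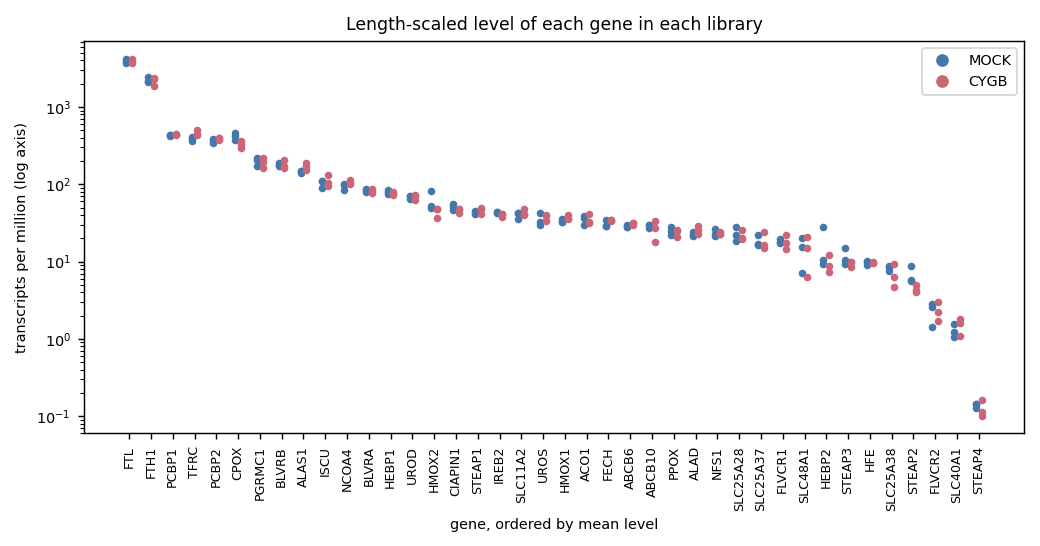
Length-scaled level in TPM (log axis) of each of the 40 genes (x axis, ordered by mean level) in the 3 MOCK and 3 CYGB libraries, one point per library. FTL and FTH1 stand above 1800 TPM in every library and STEAP4 below 0.2 TPM, and the points of both groups lie over each other for most genes.

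Heme synthesis began with ALAS1, the first and rate-limiting enzyme in cells outside the erythroid lineage. ALAS1 (ENSG00000023330) had 7649, 8949 and 8404 counts in MOCK and 8514, 9967 and 10071 in CYGB, or 162, 169 and 163 CPM against 169, 196 and 192 CPM. CYGB replicates 2 and 3 stood above every MOCK library, and CYGB replicate 1 lay at the top of the MOCK range (scaled to plain library totals instead, all 3 CYGB libraries stood above MOCK, by 1.05 CPM). The log2 fold change was 0.17 (SE 0.08, 95% interval -0.03 to 0.37), with an unadjusted p of 0.0849 in edgeR, and without CYGB replicate 1 it was 0.23 with an unadjusted p of 0.0198. ALAS2, its erythroid counterpart, was at 0 to 16 counts per library and was not tested.

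CPOX, coproporphyrinogen oxidase of the mitochondrial intermembrane space, was the enzyme of the pathway with the lowest CYGB values relative to MOCK. CPOX (ENSG00000080819, chr3:98579446-98593723, minus strand) had 31262, 31619 and 27199 counts in MOCK and 25917, 23098 and 21855 in CYGB, or 662, 598 and 528 CPM against 513, 455 and 416 CPM. All 3 CYGB libraries lay below all 3 MOCK libraries, but MOCK replicate 3 and CYGB replicate 1 were only 15.4 CPM apart. The means were 596 ± 66.7 and 461 ± 48.8 CPM (SD, n = 3 each). The log2 fold change was -0.37 (SE 0.12, 95% interval -0.66 to -0.09, ratio 0.774), with an unadjusted p of 0.0188 and an adjusted p of 0.963 by edgeR's quasi-likelihood test. A single protein-coding transcript, ENST00000264193, held 99.3% of the counts. The part of the division of reads among isoforms in this value was not tested. Without MOCK replicate 1 the unadjusted p was 0.0551, and without CYGB replicate 3 it was 0.0582.

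FECH, ferrochelatase, closes the pathway. FECH had 2169, 3090 and 2303 counts in MOCK and 2772, 2911 and 2982 in CYGB, or 45.9, 58.5 and 44.7 CPM against 54.9, 57.3 and 56.8 CPM. The CYGB libraries lay close together, inside the range that MOCK replicate 2 opened. FECH had a log2 fold change of 0.18 (SE 0.13, 95% interval -0.14 to 0.49, unadjusted p 0.213 in edgeR), and without MOCK replicate 2 it was 0.31 with an unadjusted p of 0.0338. The 4 enzymes in between, ALAD, UROS, UROD and PPOX, had log2 fold changes of 0.12, 0.06, -0.03 and 0.02, with overlapping groups. Across the 7 enzymes 5 values were above 0 and 2 below, and 1 of 7 (14.3%, against 4.54% of all genes) had an unadjusted p under 0.05.

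Heme breakdown was represented by 4 genes, of which HMOX2, the constitutive heme oxygenase, had the largest difference. HMOX1, the oxygenase that oxidative stress and free heme induce, had 1592, 1597 and 1532 counts in MOCK and 1708, 1577 and 2011 in CYGB, or 33.7, 30.2 and 29.8 CPM against 33.8, 31.0 and 38.3 CPM. Only CYGB replicate 3 stood clear of the MOCK libraries. Its log2 fold change was 0.14 (SE 0.12, 95% interval -0.16 to 0.44, unadjusted p 0.307 in edgeR), and the interval lies below a doubling.

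HMOX2 had 2374, 2765 and 2326 counts in MOCK and 2198, 1747 and 2361 in CYGB, or 50.3, 52.3 and 45.2 CPM against 43.5, 34.4 and 45.0 CPM. The groups did not overlap, yet MOCK replicate 3 and CYGB replicate 3 were nearly equal, and CYGB replicate 2 was the lowest. For HMOX2 the log2 fold change was -0.27 (SE 0.14, 95% interval -0.60 to 0.07, unadjusted p 0.1 in edgeR). At the transcript level, ENST00000458134 had 934, 713 and 1277 counts in MOCK and 1030, 0 and 1161 in CYGB. In CYGB replicate 2, ENST00000406590 took 513 counts and ENST00000613539 took 232, both at 0 in every other library, and in MOCK replicate 2 ENST00000570445 took 1130 counts, against 0 to 102 elsewhere. The division among HMOX2 isoforms thus differed between libraries, and its part in the gene sum was not tested. The other main isoform, ENST00000570646, had 1186, 734 and 880 counts in MOCK and 952, 954 and 1016 in CYGB, with a log2 fold change of 0.04. With the length offset the gene value was -0.49 (SE 0.23, unadjusted p 0.0741 in edgeR). HMOX2 shares exonic positions with NMRAL1, and strand use in the counting is not given. In all, 14 of the 40 genes share exonic positions with another gene, and for 7 of them that gene has at least 10% of the counts.

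BLVRB, a biliverdin reductase, had 79.5, 79.4 and 83.3 CPM in MOCK and 71.9, 76.3 and 94.5 CPM in CYGB, with CYGB libraries on both sides of the MOCK range. Its log2 fold change was 0.00 (SE 0.12, 95% interval -0.29 to 0.30). BLVRA, which reduces biliverdin to bilirubin, had a log2 fold change of -0.04 (SE 0.11).

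**Figure D3:**
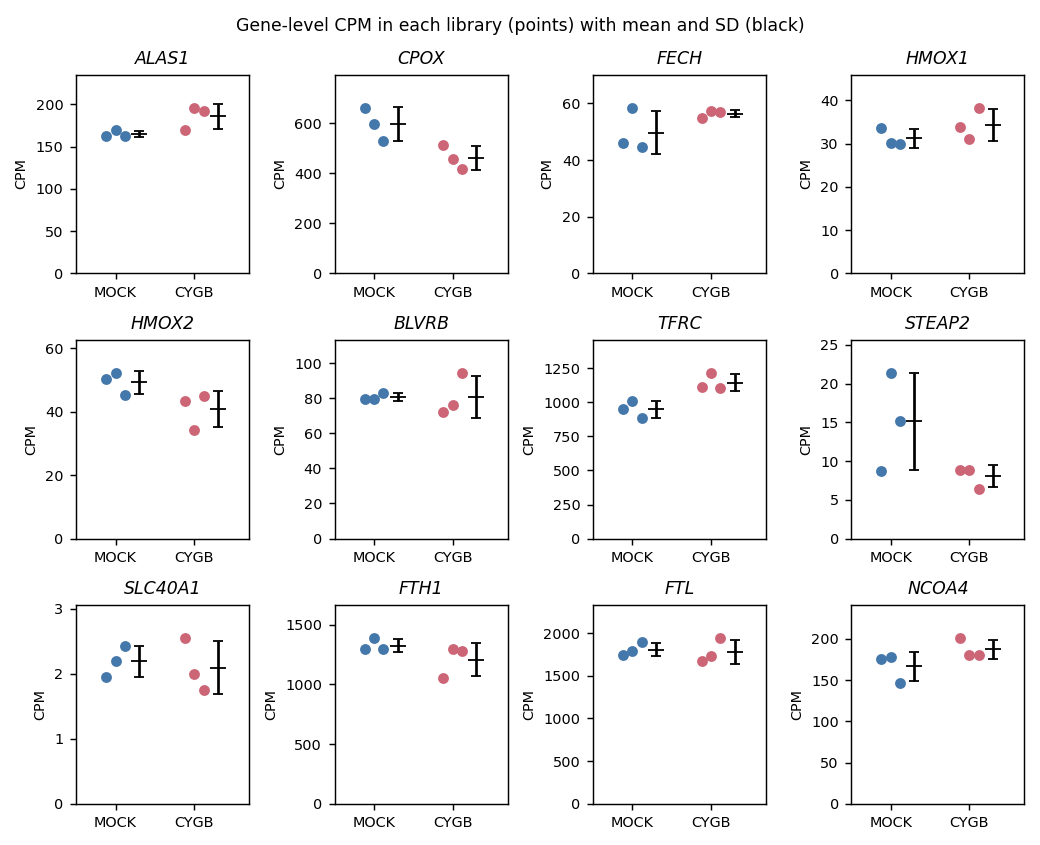
CPM (y axis, from 0) of 12 named genes in each library, with MOCK points left and CYGB points right and the mean and SD of each group of 3 in black. TFRC lies at 884 to 1011 CPM in MOCK and 1107 to 1217 CPM in CYGB, CPOX at 528 to 662 and 416 to 513 CPM, and the groups of FTH1, FTL, HMOX1, FECH and SLC40A1 overlap.

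Iron uptake held the gene with the lowest unadjusted p of the 40, TFRC, whose product brings transferrin-bound iron into the cell. TFRC (ENSG00000072274, chr3:196027183-196082189, minus strand) had 44899, 53404 and 45524 counts in MOCK and 56066, 61853 and 58130 in CYGB, or 950, 1011 and 884 CPM against 1110, 1217 and 1107 CPM. Every CYGB library lay above every MOCK library, with a mean of 1145 ± 62.9 CPM against 949 ± 63.2 CPM (SD, n = 3 each). The log2 fold change was 0.27 (SE 0.08, 95% interval 0.08 to 0.46, ratio 1.21), with an unadjusted p of 0.0123 and an adjusted p of 0.963 by edgeR's quasi-likelihood test. Per length the libraries read 381, 405 and 361 TPM in MOCK and 451, 497 and 439 TPM in CYGB, and the groups again did not overlap.

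The 3 TFRC transcripts that hold the 4 elements printed above took 99.2 to 99.7% of the gene's counts in every library, while their split between libraries was uneven. The main one, ENST00000392396, had 41533, 39869 and 44153 counts in MOCK and 35094, 46504 and 53333 in CYGB, a log2 fold change of 0.09 (SE 0.16), with overlapping groups. ENST00000360110 had 2224, 4692 and 147 counts in MOCK and 5338, 15176 and 4456 in CYGB, and ENST00000420415 had 786, 8593 and 924 in MOCK and 15423, 0 and 0 in CYGB. These isoforms are near in length (5032, 5111 and 4814 bases), and the sum over the gene was steadier than each of them.

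SLC40A1, ferroportin, was low, with 92, 116 and 125 counts in MOCK and 129, 101 and 92 in CYGB, or 1.95, 2.20 and 2.43 CPM against 2.55, 1.99 and 1.75 CPM. The CYGB range enclosed the MOCK range. Its log2 fold change was -0.06 (SE 0.21, 95% interval -0.59 to 0.46). SLC11A2 had 53.7, 61.8 and 56.2 CPM in MOCK and 54.6, 56.8 and 59.3 CPM in CYGB, and all CYGB libraries lay within the MOCK range. Its log2 fold change was -0.01 (SE 0.10, 95% interval -0.24 to 0.23). SLC11A2 transcripts that hold the element printed above took 74.3, 64.3 and 63.2% of the counts in MOCK and 62.5, 61.9 and 65.1% in CYGB, and MOCK replicate 1 stood above the others. Its most abundant entry was a retained-intron transcript, ENST00000550782, with 229, 1977 and 1522 counts in MOCK and 1476, 1441 and 1129 in CYGB.

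The STEAP proteins are a family that includes metalloreductases, which reduce iron and copper for transport. STEAP2 (ENSG00000157214, chr7:90167590-90238137, plus strand) had the largest difference of the 40 genes. It had 415, 1130 and 783 counts in MOCK and 449, 451 and 336 in CYGB, or 8.79, 21.4 and 15.2 CPM against 8.89, 8.87 and 6.4 CPM. MOCK replicate 1 lay inside the CYGB range, and MOCK replicates 2 and 3 above it. The log2 fold change was -0.91 (SE 0.34, 95% interval -1.75 to -0.07, ratio 0.532), with an unadjusted p of 0.0373 and an adjusted p of 0.963 by edgeR's quasi-likelihood test. Without MOCK replicate 1 the log2 fold change was -1.19 with an unadjusted p of 0.00431, which passes the threshold of the methods, and without MOCK replicate 2 it was -0.58 with an unadjusted p of 0.117.

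In MOCK the STEAP2 counts followed a long isoform of 7033 bases, ENST00000394621, with 141, 996 and 693 counts. In CYGB this isoform had 231, 27 and 60 counts, while the gene had 449, 451 and 336, so the sum did not follow it there. Most counts of CYGB replicate 2 lay on STEAP2 transcripts that are not listed here. A shorter isoform of 2456 bases, ENST00000394626, had 172, 16 and 13 counts in MOCK and 131, 79 and 115 in CYGB, and the 2 libraries with the most counts on the long isoform had the fewest on the short one. Per length STEAP2 read 5.63, 8.64 and 5.72 TPM in MOCK and 4.97, 4.06 and 4.32 TPM in CYGB, and on that scale the groups did not overlap. With transcript length as an offset in the edgeR fit, the log2 fold change was -0.60 (SE 0.22, unadjusted p 0.0292, adjusted p 0.959). The direction held on both scales, and the value was smaller with the offset.

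HFE, a partner of the transferrin receptor, also differed between the scales. It had 311, 1094 and 905 counts in MOCK and 987, 1118 and 884 in CYGB, where MOCK replicate 1 was far below the other 5 libraries. In that library the 5286-base isoform ENST00000357618 had 44 counts, against 1047 and 783 in the other MOCK libraries and 886, 1077 and 750 in CYGB. Per length HFE read 10.1, 8.93 and 9.73 TPM in MOCK and 9.89, 9.53 and 9.53 TPM in CYGB, a fold range of 1.13 over the libraries against 3.34 in CPM. Its log2 fold change went from 0.38 (SE 0.41) to -0.01 (SE 0.12) with the length offset. The other STEAP genes had log2 fold changes of 0.01 (STEAP1), -0.49 (STEAP3) and -0.50 (STEAP4, at 6 to 44 counts per library), each with overlapping groups.

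**Figure D4:**
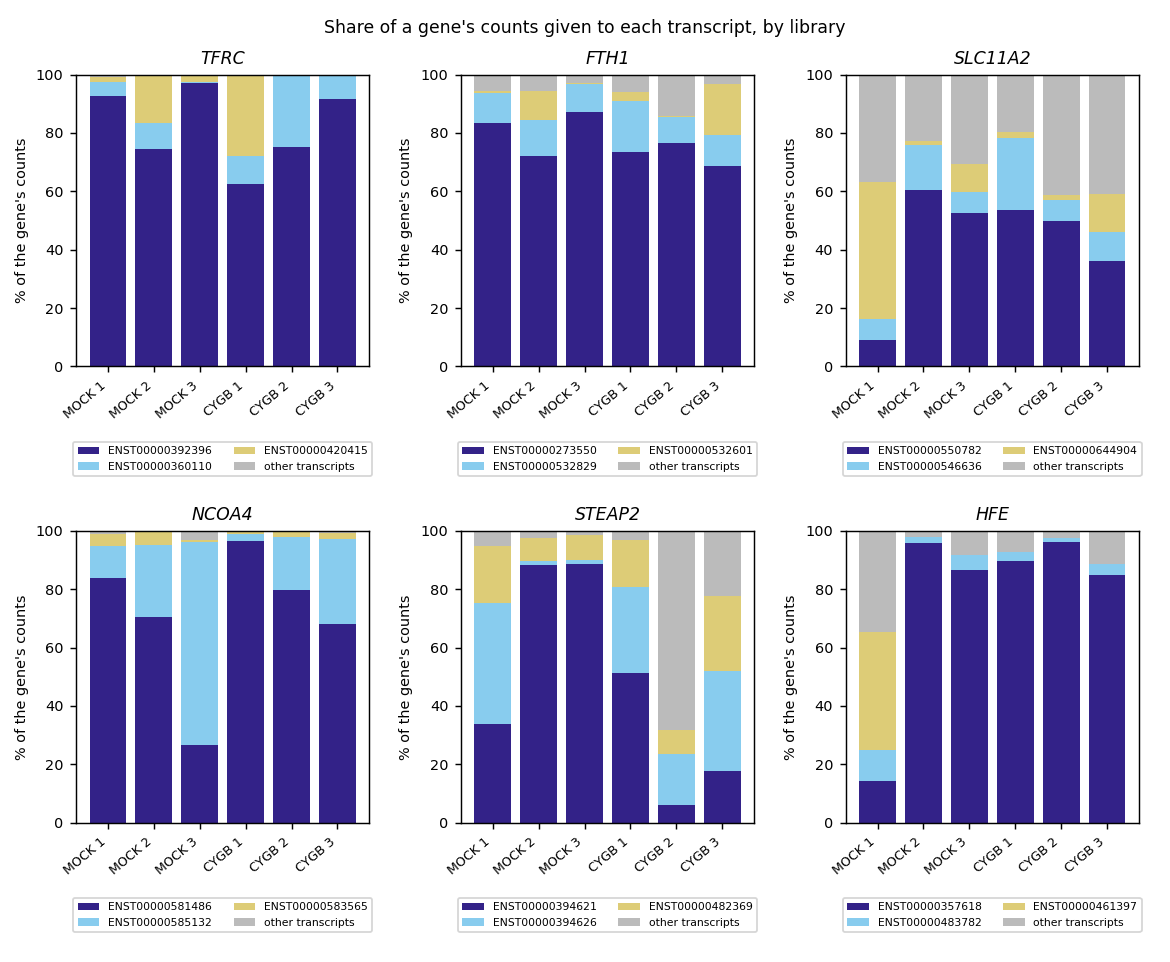
Share in percent (y axis) of a gene's counts given to its 3 most abundant transcripts and to all others, in each library (x axis), for 6 genes. The main isoform took 62.6 to 97.0% of TFRC counts, 5.99 to 88.5% of STEAP2 counts and 14.1 to 96.3% of HFE counts. In none of the 6 genes did the share of the main isoform separate the groups.

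Ferritin, the iron store, was the most abundant product of the list, and the gene sums of both chains had overlapping groups. FTH1 had 61060, 73365 and 66540 counts in MOCK and 53220, 65765 and 67101 in CYGB, or 1293, 1388 and 1293 CPM against 1053, 1294 and 1278 CPM. CYGB replicate 1 was the lowest library, and the others overlapped. For FTH1 the log2 fold change was -0.13 (SE 0.10, 95% interval -0.37 to 0.10). The transcripts with the IRE took 98.6, 88.7 and 98.6% of FTH1 counts in MOCK and 96.5, 99.2 and 80.8% in CYGB. The low shares in MOCK replicate 2 and CYGB replicate 3 came with 7254 and 11742 counts on ENST00000532601, an annotated transcript without the element, against 92 to 1649 elsewhere.

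FTL has 1 transcript in the table, which carries the element, and therefore no isoform question. FTL had 82148, 94413 and 97395 counts in MOCK and 84411, 87887 and 101952 in CYGB, or 1739, 1787 and 1892 CPM against 1671, 1729 and 1941 CPM. The groups overlapped, with a log2 fold change of -0.02 (SE 0.08, 95% interval -0.21 to 0.17). Both chains have processed pseudogenes that could take or give reads: 21 FTH1 pseudogenes summed to 1.03 to 1.60% of FTH1 counts and 7 FTL pseudogenes to 0.0974 to 0.151% of FTL counts.

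NCOA4, the receptor that delivers ferritin to autophagy, had 8303, 9410 and 7521 counts in MOCK and 10178, 9176 and 9521 in CYGB, or 176, 178 and 146 CPM against 201, 181 and 181 CPM. The groups did not overlap in CPM, by a margin of 2.47 CPM at the nearest pair. NCOA4 had a log2 fold change of 0.17 (SE 0.10, 95% interval -0.08 to 0.42, unadjusted p 0.148 in edgeR). Its main isoform, ENST00000581486, took 26.6% of the counts in MOCK replicate 3 and 68.0 to 96.7% in the others. PCBP1 and PCBP2, chaperones that hand iron to ferritin, had log2 fold changes of 0.02 (SE 0.06) and 0.00 (SE 0.08).

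The iron regulatory proteins themselves had narrow intervals around 0. IREB2 had 126, 122 and 132 CPM in MOCK and 126, 118 and 110 CPM in CYGB, a log2 fold change of -0.10 (SE 0.08, 95% interval -0.30 to 0.10). ACO1, which is an aconitase when it holds an iron-sulfur cluster, had 116, 122 and 126 CPM in MOCK and 119, 123 and 127 CPM in CYGB, a log2 fold change of 0.02 (SE 0.07, 95% interval -0.16 to 0.19). ACO1 groups overlapped over almost their whole range, and CYGB replicate 3 of IREB2 was the lowest library. Of the 5 genes listed with the element, 1 (TFRC, 20.0%, against 4.54% of all genes) had an unadjusted p under 0.05 in edgeR. Of these 5, 1 was above 0 and 4 below, and the median log2 fold change was -0.021. Since iron regulatory proteins act on ferritin and ferroportin at translation, their protein levels were not measured by these counts. Of the 8 genes listed as targets of NRF2 and BACH1, transcription factors that answer oxidants and heme, 0 had an unadjusted p under 0.05 in edgeR (against 4.54% of all genes), 5 were above 0 and 3 below, with a median of 0.027.

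The carriers of the mitochondrial membranes had overlapping groups in all 5 cases. The iron importers SLC25A37 and SLC25A28 (mitoferrins) had log2 fold changes of 0.07 (SE 0.21) and -0.13 (SE 0.21), and SLC25A38, a glycine carrier for heme synthesis, had -0.38 (SE 0.29). SLC25A38 had 407, 375 and 431 counts in MOCK and 449, 229 and 270 in CYGB, with CYGB replicate 1 the highest of all libraries and the other CYGB libraries the lowest. The transporters ABCB6 and ABCB10 had 0.16 (SE 0.17) and -0.16 (SE 0.22).

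Heme transport held the least precise values. SLC48A1, which moves heme out of lysosomes, had 1229, 222 and 979 counts in MOCK and 257, 940 and 1438 in CYGB. MOCK replicate 2 and CYGB replicate 1 were low and the other 4 libraries high, so the libraries split across the groups. Its log2 fold change was 0.05 (SE 0.80, 95% interval -1.90 to 2.00), and its exons overlap those of HDAC7 and RAPGEF3. HEBP2, a heme-binding protein, had 2825, 1068 and 1258 counts in MOCK and 707, 1539 and 1306 in CYGB, with MOCK replicate 1 the highest and CYGB replicate 1 the lowest, and a log2 fold change of -0.59 (SE 0.49). FLVCR1, FLVCR2, HEBP1 and PGRMC1 had log2 fold changes between -0.11 and -0.05. The iron-sulfur assembly genes ISCU, NFS1 and CIAPIN1 had values between -0.02 and -0.01.

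**Figure D5:**
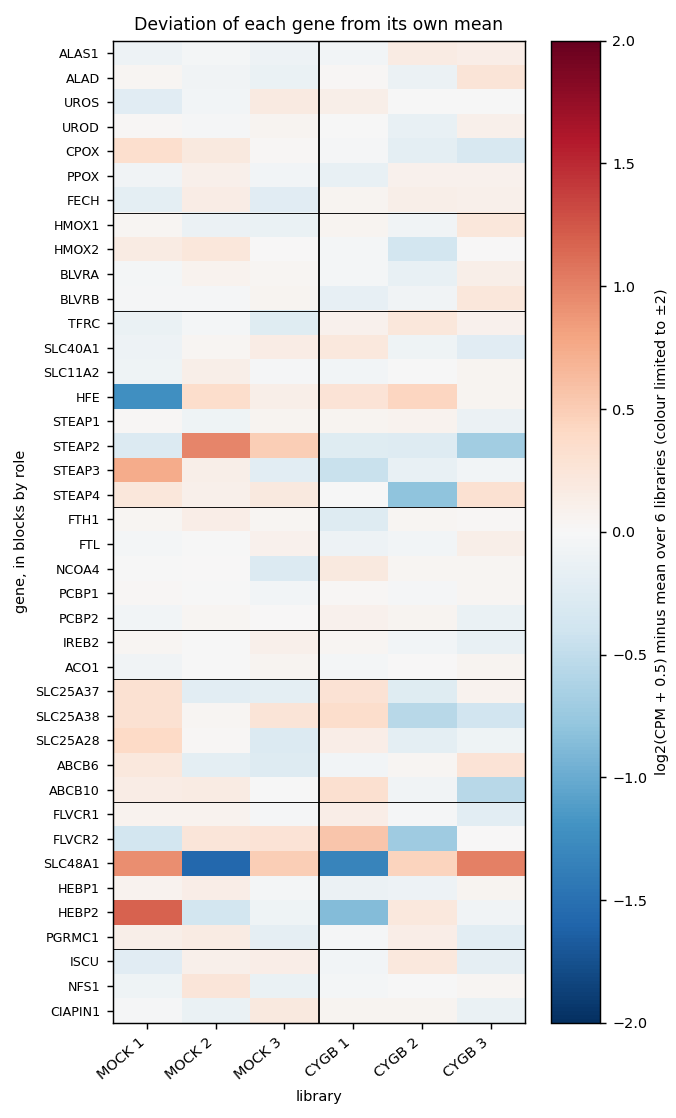
Log2(CPM + 0.5) of each of the 40 genes minus its own mean over the 6 libraries (colour, limited to ±2), with genes in blocks by role (rows) and libraries as columns, MOCK left of the black line. The strongest colours sit in some libraries of a group, such as HFE in MOCK replicate 1 and SLC48A1 in MOCK replicate 2 and CYGB replicate 1. No block has one colour across a whole group.

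The genes with the widest swings in CPM had groups that overlapped. The 40 genes had a median fold range of 1.32 in CPM over the 6 libraries, 28 of them stayed under 1.5-fold, and 7 exceeded 2-fold. In TPM the median range was 1.35 and 6 genes exceeded 2-fold. Among these 6, HMOX2 (2.2-fold) and STEAP2 (2.13-fold) had groups that did not overlap. In TPM the groups did not overlap for 8 of 40 genes (20.0%, against 11.0% of the 19968 tested genes with a TPM). They were 4 higher in CYGB (ALAS1, HMOX1, TFRC and PCBP1, against 6.63% of all genes) and 4 lower (CPOX, HMOX2, STEAP2 and IREB2, against 4.41%). TFRC, CPOX and HMOX2 are on both this list and that in CPM.

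Per transcript, 359 transcripts of the 40 genes were in the table and 205 were tested. At the threshold of the methods, 0 of 205 passed by edgeR, against 1.02% of 66609 transcripts. DESeq2 passed 1 (0.488%, against 2.26% of all transcripts), the retained-intron transcript ENST00000479246 of PPOX. Leaving out a library moved the edgeR count to 5 of 219 without MOCK replicate 1 (2.28%, against 1.31% of all transcripts in that fit). Without MOCK replicate 2 it was 4 of 218 (1.83%, against 1.43%). It was 1 of 219 without MOCK replicate 3 (0.457%, against 1.66%) and 1 of 226 without CYGB replicate 1 (0.442%, against 1.39%). An unadjusted p under 0.05 was found for 6 (2.93%, against 3.78%), all lower in CYGB (1.97% of all transcripts were called lower). They were the main CPOX transcript, 4 retained-intron transcripts (2 of PPOX, 1 each of ISCU and PCBP2) and a minor UROS transcript. The groups did not overlap for 16 (7.80%, against 10.4%).

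The larger isoforms of the anchor genes not yet given are these. For ALAS1, ENST00000469224 had 4688, 5451 and 5776 counts in MOCK and 5291, 7112 and 7138 in CYGB, and ENST00000484952 had 1818, 2360 and 1600 and then 2230, 1391 and 1463. For FECH, ENST00000262093 had 1840, 2780 and 1818 counts in MOCK and 2259, 2579 and 2347 in CYGB, and the shorter ENST00000382873 had 148, 250 and 309 and then 346, 299 and 537. The shorter FECH isoform overlapped between the groups, at a log2 fold change of 0.74 (SE 0.38) with an unadjusted p of 0.107 in edgeR. For FTH1, ENST00000273550 had 50899, 52793 and 57967 counts in MOCK and 39045, 50385 and 46085 in CYGB. Every CYGB count of this transcript lay below every MOCK count, with a log2 fold change of -0.26 (SE 0.11, unadjusted p 0.0645 in edgeR). The FTH1 transcript ENST00000532829 had 6230, 9116 and 6378 counts in MOCK and 9258, 5880 and 7031 in CYGB. For NCOA4, ENST00000581486 had 6969, 6635 and 1998 counts in MOCK and 9838, 7304 and 6477 in CYGB, and ENST00000585132 had 916, 2309 and 5239 and then 232, 1688 and 2774. In NCOA4 the second isoform was highest where the first was lowest, in MOCK replicate 3. For SLC11A2, ENST00000546636 had 183, 506 and 201 counts in MOCK and 680, 202 and 304 in CYGB, and ENST00000644904 had 1187, 41 and 284 and then 60, 52 and 410. Each of HMOX1, BLVRB, SLC40A1, IREB2 and ACO1 had 1 isoform with 87.0 to 99.3% of its counts.

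The other genes of these pathways were counted in the same way. Of 66 further iron, heme and iron-sulfur genes, 59 were tested. Past the threshold of the methods were 0 in edgeR (against 0.565% of all genes) and 0 in DESeq2 (against 1.32%). Unadjusted p under 0.05 was found for 2 (3.39%, against 4.54% of all genes), both higher in CYGB (2.15% of all genes), so the share is not above the background, and the median log2 fold change was -0.02 (27 above 0 and 32 below). The groups did not overlap for 10 of the 59 (16.9%, against 11.0% of all genes). Of these, 7 were higher (5.72% of all genes) and 3 lower (5.31%) in CYGB. The share without overlap is above that of all genes, and the difference was not tested. NUBP2, a scaffold of cytosolic iron-sulfur assembly, had 2965, 3281 and 2946 counts in MOCK and 3674, 3911 and 3932 in CYGB, with every CYGB library higher, and a log2 fold change of 0.30 (SE 0.08, unadjusted p 0.0109 in edgeR). MCOLN1, a channel that releases iron from lysosomes, had 1034, 1106 and 1163 counts in MOCK and 1325, 1321 and 1345 in CYGB, again without overlap, and a log2 fold change of 0.25 (SE 0.10, unadjusted p 0.0480 in edgeR). Both had an adjusted p of 0.963 (Benjamini-Hochberg in edgeR over all genes tested).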

How the data were processed

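RNA was sequenced with paired-end reads of 150 bases from NEBNext Ultra RNA libraries on an Illumina NovaSeq instrument. The file that the authors deposited holds whole-number counts for each transcript, not normalized. The submitters' processing notes name HISAT2, DESeq2 and hg19, but 99.6% of the shared transcripts have their GENCODE 29 position, so coordinates are those of GRCh38. The counting tool, the division of reads among isoforms and the strand setting are not given in the sources used here. Transcripts without a gene (18.64 to 19.49% of counts) were left out, and the others summed per gene.

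After filterByExpr (minimum count 10) and TMM scaling, edgeR 4.0.16 (glmQLFit, glmQLFTest) in R 4.3.3 was used, CYGB against MOCK without a block, with Benjamini-Hochberg adjustment over all genes or transcripts tested. The steps were tested on simulated data. DESeq2 1.42.0 was an alternative. Figures were drawn with matplotlib 3.10.9. Values per length used annotated transcript lengths and carry no test, and the length offset was added after the data were seen. The other alternatives were DESeq2's size factors, the replicate block, no filter on counts, a filter on a mean of 50, each library left out, transcripts without a gene included and the most abundant transcript.

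Values in every library were given for members with an unadjusted p under 0.05, for those without overlap and a log2 fold change of at least 0.5, and for fixed anchors (ALAS1, FECH, CPOX, HMOX1, HMOX2, BLVRB, TFRC, FTH1, FTL, SLC40A1, SLC11A2, IREB2, ACO1, NCOA4) with transcripts of at least 10% of the counts. HFE, SLC48A1, SLC25A38 and HEBP2 were added after their values were seen. The members, the lists and the rule were chosen with earlier results of these data known. Of the further genes, 4 were matched through older symbols, 1 epithelial marker was not analysed here, and 1 erythroid marker is not reported here. Leukocyte markers summed to 11.2 to 27.3 CPM (mostly CD68), fibroblast markers to 45.5 to 55.1 (mostly COL1A1) and hepatocyte markers to at most 0.855.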

Additional observations from a re-analysis of the deposited data

How the results depend on the processing

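Under each alternative that was run over all 40 members (the most abundant transcript was run for the 15 named members alone), 0 members had an adjusted p below 0.05. Members past the threshold of the methods numbered 0 there, except that leaving out each library in turn gave 0 to 1. The 1 was STEAP2 without MOCK replicate 1 (2.5%, against 0.593% of all genes in that fit). Member transcripts past this threshold numbered 1 with DESeq2 and 0 to 5 with a library left out. The labels do not say whether the replicate numbers pair the libraries. Over all genes tested, same-numbered libraries deviated together with correlations of 0.0159, 0.00487 and 0.0253. These cannot decide it, since correlations of the other pairs are not given. With the replicate block the members past either threshold stayed at 0. In that edgeR fit the unadjusted p was 0.00365 for CPOX, 0.0101 for TFRC and 0.0666 for STEAP2, and BLVRB read -0.01. With the 15 named members over their alternatives, 192 of 210 log2 fold changes kept their direction and 18 reversed, all between -0.12 and 0.20. With a library left out the reversals fell among values that ranged from -0.12 to 0.08 for BLVRB, -0.01 to 0.05 for ACO1, -0.05 to 0.05 for SLC11A2, -0.23 to 0.05 for SLC40A1 and -0.08 to 0.02 for FTL. With all libraries, the mean of at least 50 counts gave BLVRB -0.00178, the length offset SLC40A1 0.20, SLC11A2 0.07 and ACO1 -0.01, and the most abundant transcript HMOX2 0.04 and SLC11A2 0.14, while HMOX2 read -0.49 with the length offset. FECH and ALAS1 reached an unadjusted p under 0.05 in 1 of 14 alternatives each. TFRC ranged from 0.09 (most abundant transcript) to 0.32 and CPOX from -0.46 to -0.29, with an unadjusted p under 0.05 in 13 and 12 of 14 alternatives. STEAP2 ranged from -2.50 (most abundant transcript) to -0.58, with 6 of 14. Over all genes, DESeq2 called 108 at an adjusted p under 0.05 where edgeR called 11, and 263 against 113 past the threshold of the methods. The cause was not tested. At 3 libraries per group, a 2-fold difference lies within the interval of 8 members, and a count table per transcript does not show how shared reads were divided.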
